A study of Rattus norvegicus with 9 samples.

Results

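The genes described here are 6 genes of cytotoxic lymphocytes, chosen by symbol from the 41801 genes in the count matrices: Gzmb, Gzmm, Prf1, Nkg7, Klrd1 and Ccl5. They were followed across T-cell-like, NK-cell-like and granulocyte-monocyte progenitor-like cells in 8 single-cell libraries. The list was given by name and its rule uses no measured value, but it was drawn up with earlier results of these data known. Cells came from the proximal tibia of Sprague-Dawley rats aged 6 to 8 weeks, 9 rats in all, with a circular osteotomy of 3 mm and a skin wound of 4 mm on the foot of the same side. In the TO arm the osteotomy was left without shock waves, and these libraries were TO 2d 0h, TO 2d 4h, TO 4d 4h and TO 4d 24h, named by the day of the session and the hours until collection. In the TOE arm the osteotomy site also received radial shock waves, in sessions on days 2 and 4, and each library was collected after the session it is named for, so that those of day 2 precede the second session. These libraries were TOE 2d 4h, TOE 2d 24h, TOE 4d 4h and TOE 4d 24h. The untreated library for 24 h after day 2 was not analysed here. All animals of both arms carried the osteotomy and the foot wound, so no library comes from an uninjured bone. The sources used here do not state how many rats entered each library.

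Cytotoxic lymphocytes, that is NK cells and CD8 T cells, kill by emptying granules onto a target cell. Perforin, the product of Prf1, forms pores in the membrane of the target. Granzymes are serine proteases that enter with it: granzyme B, from Gzmb, cleaves after acidic residues and starts cell death, and granzyme M, from Gzmm, prefers to cleave after methionine or leucine and is known as a protease of NK cells. Nkg7 is a membrane protein of these granules that takes part in their release. Klrd1 encodes CD94, the partner chain of the NKG2 receptors that read non-classical MHC class I molecules. Ccl5 is a chemokine that is released by activated T and NK cells and draws in other leukocytes.

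Promoters of 4 of the 6 genes were found in the RefSeq table for build GRCr8, each with 250 bases before and 50 bases after the start. They are shown because these genes shared populations in the counts, and because the factors Tbx21, Eomes and Runx3 are measured here as well. Capitals mark matches on either strand to GGTGTG (T-box core), TGTGGT (RUNX core), GGAAGT (ETS core) or TGACGT (half-site of ATF and CREB), and none of these matches overlapped.
Gzmb, chr15:34462420-34462719, minus strand: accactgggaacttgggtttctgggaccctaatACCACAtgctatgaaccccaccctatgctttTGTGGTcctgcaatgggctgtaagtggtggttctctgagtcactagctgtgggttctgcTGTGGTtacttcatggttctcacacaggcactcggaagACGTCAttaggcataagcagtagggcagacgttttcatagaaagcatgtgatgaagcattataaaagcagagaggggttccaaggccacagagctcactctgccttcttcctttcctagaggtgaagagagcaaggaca
Gzmm, chr7:10667207-10667506, minus strand: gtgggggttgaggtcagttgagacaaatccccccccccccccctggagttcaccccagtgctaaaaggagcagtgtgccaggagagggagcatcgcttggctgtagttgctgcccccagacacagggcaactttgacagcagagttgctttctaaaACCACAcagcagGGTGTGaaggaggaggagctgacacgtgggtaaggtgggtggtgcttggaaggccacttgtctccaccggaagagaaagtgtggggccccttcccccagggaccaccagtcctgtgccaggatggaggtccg
Prf1, chr20:29788790-29789089, plus strand: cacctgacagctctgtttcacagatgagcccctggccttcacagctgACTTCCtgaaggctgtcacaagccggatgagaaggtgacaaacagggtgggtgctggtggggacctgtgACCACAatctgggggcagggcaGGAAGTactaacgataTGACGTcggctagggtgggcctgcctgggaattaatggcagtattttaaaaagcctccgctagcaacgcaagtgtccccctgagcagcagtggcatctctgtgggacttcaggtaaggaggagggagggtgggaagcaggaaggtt
Nkg7, chr1:102981247-102981546, plus strand: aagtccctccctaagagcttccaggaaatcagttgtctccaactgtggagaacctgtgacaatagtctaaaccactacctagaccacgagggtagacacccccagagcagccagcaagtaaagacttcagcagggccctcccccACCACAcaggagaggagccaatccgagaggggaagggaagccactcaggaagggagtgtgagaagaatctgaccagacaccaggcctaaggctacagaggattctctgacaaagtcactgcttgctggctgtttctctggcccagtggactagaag
The RUNX core was present in 4 of these 4 promoters and in 17.3% of all 33469 promoters of this length. In Gzmb the first base of the match stood 217, 186 and 127 bases before the start. In Gzmm, Prf1 and Nkg7 it stood 94, 134 and 106 bases before it. The T-box core was found in Gzmm alone among the 4, against 17.9% of all promoters, and the ETS core in Prf1 alone, against 22.6%. The ATF and CREB half-site was found in Gzmb and Prf1, against 7.94% of all promoters. A match describes the letters of these windows and not the binding of a factor. Of the others, Klrd1 lies between Klre1 and Klrk1 in the NK gene complex on chromosome 4, and Ccl5 lies near Ccl9, Ccl6, Ccl3 and Ccl4 on chromosome 10.

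The 8 libraries held from 95954800 to 144146202 UMIs, with medians of 4522 to 5668 UMIs per barcode, and 110482 of 116711 barcodes were kept. Any pair of libraries shared from 40 to 110 barcodes. No NK-cell-like or T-cell-like barcode was shared between libraries. The unit of level is CPM, a gene's UMIs in a set of cells per 1000000 UMIs of that set, with exact Poisson intervals at 95%. These intervals cover counting error only, and not the spread between cells or animals. Every condition was 1 library, so a difference between 2 conditions had no replicates. No model across the 8 libraries or the 3 pairs was run, and ratios of TOE to TO are given with exact conditional intervals of the same kind.

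The populations were taken from clusters made without the 6 genes. There were 164 NK-cell-like cells, 0.148% of all cells, with 5 to 32 per library. The 868 T-cell-like cells made up 0.786%, with 24 to 164 per library, and the 1424 granulocyte-monocyte progenitor-like cells (GMP-like below) made up 1.29%, with 87 to 293 per library. Their median depths were 7111, 7602 and 27926 UMIs per cell, against 4407 in B-cell-like, 5815 in neutrophil-like and 6787 in erythroid-like cells, which serve below as cells that should lack most of these genes. The populations as a whole carried most markers of their names, with exceptions given here and, for the T sub-clusters, below. NK-cell-like cells had 0 UMIs of the T cell genes Cd3e, Themis and Cd8b and UMIs of 13 of 14 NK markers, with Ncr3 at 0. The other 9 of the 12 T cell markers had UMIs in them, led by Lef1 (193 CPM) and Cd28 (96.3 CPM), and the list summed to 383 CPM against 2532 CPM in T-cell-like cells. T-cell-like cells had UMIs of 12 of 12 T cell markers, but the summed NK markers also reached 871 CPM in them, against 2694 CPM in NK-cell-like cells. The 7 progenitor markers summed to 21292 CPM in GMP-like cells, mostly from Elane (6941 CPM), Ctsg (6647 CPM), Prtn3 (4002 CPM) and Mpo (2789 CPM). The name rests on these and Ms4a3, the 5 that were raised. The leading genes of this cluster also held the defensin genes Np4, RatNP-3b and Defa5, which led a neutrophil-like cluster as well. Cebpa (40.3 CPM) and Myb (265 CPM) were not raised, and Myb was higher in T-cell-like cells (322 CPM). NK-cell-like cells of the 4 h libraries lay mostly in a sub-cluster of 70 cells, with 62 from these libraries, and those of the 0 h and 24 h libraries in a sub-cluster of 94 cells, with 7 from the 4 h libraries. NK values of single libraries therefore rest mostly on one or the other of these sub-clusters, while pooled values mix both. Populations gated from single cells were used as an alternative, but most gated cells lay elsewhere. Of 13108 cells gated as T-cell-like, 10104 were B-cell-like by cluster and 699 T-cell-like. Of 1603 gated as NK-cell-like, 960 were monocyte-like and 161 NK-cell-like. Of 12008 gated as GMP-like, 1284 were GMP-like. Gated values therefore cannot check those of the cluster populations.

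Gzmm, Prf1, Klrd1 and Ccl5 were at their highest level in NK-cell-like cells, and Gzmb and Nkg7 reached the same level in a myeloid population. Without TOE 2d 4h all 6 were highest in NK-cell-like cells. In each of the 8 libraries all 6 genes were higher in NK-cell-like than in T-cell-like cells. Pooled over libraries, the level in NK-cell-like cells over that in T-cell-like cells was 13 (10.5 to 16.3) for Gzmb, 7.54 for Ccl5, 4.87 for Nkg7, 4.06 for Prf1, 3.76 for Gzmm and 2.60 for Klrd1. Thus 6 of 6 genes were at least 2-fold higher in NK-cell-like cells, where 5.26% of the 11988 genes counted were. The 2 populations are clusters of the same cells, so this is a description and not a test.

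**Figure D1:**
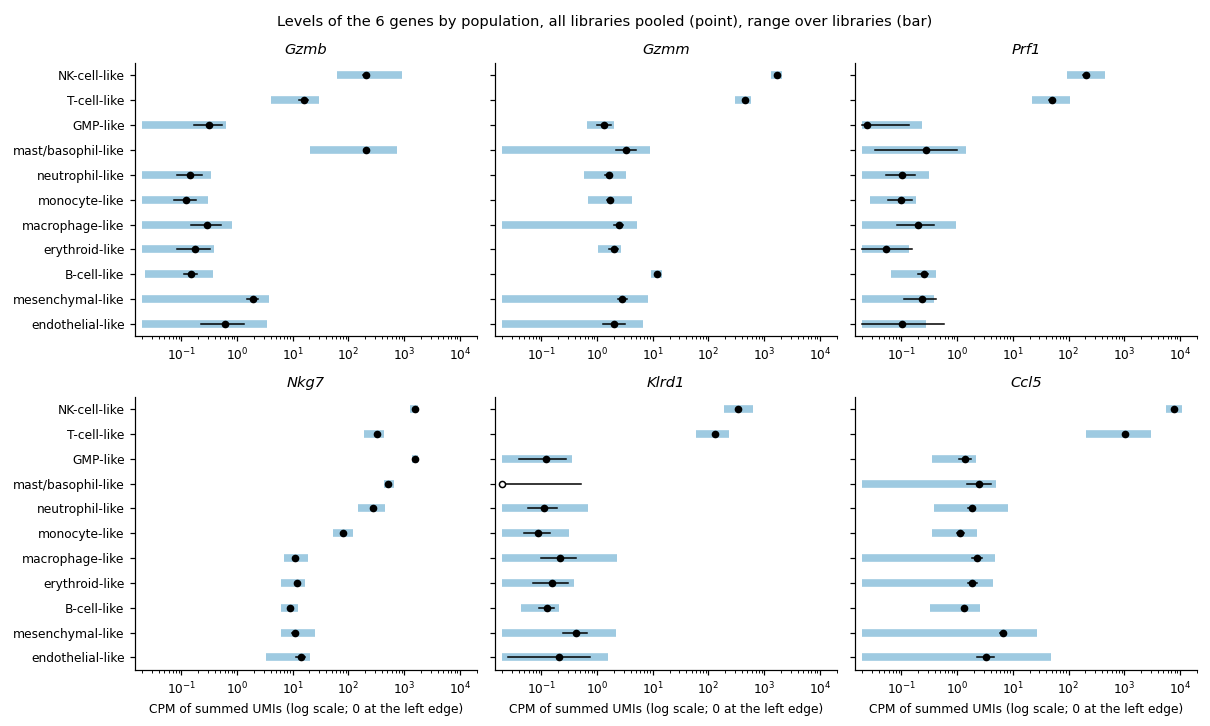
Levels of the 6 genes (one panel each) as CPM of summed UMIs on a log scale in 11 populations, with libraries pooled (points, with exact 95% counting intervals as lines) and the range over libraries (bars). All genes are high in NK-cell-like cells, 13 times (Gzmb) to 2.60 times (Klrd1) above T-cell-like cells, Nkg7 is as high in GMP-like cells, and Gzmb is as high in mast-cell/basophil-like cells.

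Granzyme B had the largest ratio of NK-cell-like to T-cell-like cells of the 6, and most of its UMIs came from a population outside them. Its level was 204 CPM (179 to 231) in NK-cell-like cells, 15.7 CPM (13 to 18.7) in T-cell-like cells and 0.315 CPM (0.168 to 0.538) in GMP-like cells. In mast-cell/basophil-like cells, which store proteases of the same family, it was 206 CPM (196 to 217), with an interval that lies within that of NK-cell-like cells. Since the mast-cell/basophil-like cells were more numerous, they held 68.4% of all Gzmb UMIs, while NK-cell-like cells held 11.6% and T-cell-like cells 5.72%. Among mast-cell/basophil-like cells the level varied widely between libraries. In TO it had 81.6 CPM (2d 0h), 211 CPM (2d 4h), 52.7 CPM (4d 4h) and 327 CPM (4d 24h). In TOE it had 745 CPM (2d 4h), 170.5 CPM (2d 24h), 557 CPM (4d 4h) and 20.4 CPM (4d 24h). The arms overlapped, with the lowest and the highest value both in TOE. In TOE 2d 24h, 5 of 102 cells held 94.0% of the 150 UMIs, so that value rests on a few cells. The Gzmb locus on chromosome 15 also holds Gzmc and the pseudogenes Gzmb-ps2 and Gzmc-ps2. Whether their UMIs were fully told apart from those of Gzmb was not tested.

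Granzyme M was found in most NK-cell-like cells, in many T-cell-like cells and, at a low level, in B cells. It reached 1714 CPM (1641 to 1788) in NK-cell-like cells and 455 CPM (441 to 470.5) in T-cell-like cells, and 94.5% and 53.8% of these cells had a UMI of it. GMP-like cells had 1.36 CPM (1.02 to 1.76), close to neutrophil-like cells at 1.64 CPM (1.42 to 1.89) and erythroid-like cells at 2.00 CPM (1.65 to 2.40). B-cell-like cells stood above this floor at 12.1 CPM (11.8 to 12.5), with 9.29 to 14.7 CPM over the libraries. Because these were 58646 cells, they held 38.5% of all Gzmm UMIs. Within them it ranged from 3.62 CPM in a cluster led by Dntt and Igll1, genes of the earliest B cell precursors, to 31.5 CPM in a cluster led by Ms4a1, the gene of CD20 on mature B cells. It did not follow stage throughout. Another cluster led by Ms4a1 had 16.2 CPM, below the 18.0 to 20.3 CPM of the clusters with Rag1 among their leading genes. With each cell thinned to 2000 UMIs, 3.24% of B-cell-like cells kept a Gzmm UMI, against 0.340% of neutrophil-like and 0.189% of erythroid-like cells. The share was 7.05% before thinning.

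Perforin was near 0 outside lymphocytes. Its level was 203 CPM (179 to 230.0) in NK-cell-like cells and 50.1 CPM (45.2 to 55.3) in T-cell-like cells, and the highest level in another named population was 0.280 CPM (0.0340 to 1.01) in mast-cell/basophil-like cells. The 1424 GMP-like cells together held 1 UMI. An unnamed cluster led by Igha, Jchain and Ms4a1, genes of B and plasma cells, had 1.06 CPM (0.659 to 1.63). T-cell-like cells held 47.1% of all Prf1 UMIs, NK-cell-like cells 29.9% and the many B-cell-like cells 11.5%. Thinned to 2000 UMIs per cell, 29.7% of NK-cell-like, 9.46% of T-cell-like and 0.0431% of B-cell-like cells had a Prf1 UMI. The unthinned shares were 59.8%, 24.1% and 0.143%.

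Nkg7 was about as high in early myeloid cells as in NK cells of this tissue. It measured 1593 CPM (1581 to 1605) in GMP-like cells and 1553 CPM (1484 to 1624) in NK-cell-like cells, with intervals that overlapped, and 319 CPM (307 to 332) in T-cell-like cells. The level in GMP-like over that in NK-cell-like cells lay between 0.767 (no filter) and 1.33 (resolution 0.5) when cells were filtered, clustered or averaged otherwise, and was 2.08 with populations gated from single cells. GMP-like cells held 50.6% of all Nkg7 UMIs and neutrophil-like cells 25.4%, while T-cell-like cells held 1.93% and NK-cell-like cells 1.46%. In GMP-like cells of TO the level was 1406 CPM (2d 0h), 1366 CPM (2d 4h), 1766 CPM (4d 4h) and 1437 CPM (4d 24h). In those of TOE it was 1796 CPM (2d 4h), 1514 CPM (2d 24h), 1670.3 CPM (4d 4h) and 1610.2 CPM (4d 24h). All 8 libraries thus lay in a narrow band, and the arms overlapped. At 2000 UMIs per cell, 82.5% of GMP-like cells kept an Nkg7 UMI against 1.83% of B-cell-like cells. The shares were 96.1% and 5.43% before thinning.

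Along the granulocyte clusters Nkg7 was lower where the leading genes mark a later stage. The neutrophil-like cluster led by defensin genes, Camp and Ngp, which are made in immature neutrophils, had 462 CPM, with 311 to 611 CPM over libraries. The clusters led by Mmp8, Retnlg and other genes of late neutrophils had 15.9 CPM (8.89 to 28.1 over libraries) and 13.9 CPM (9.46 to 29.4 over libraries). These late levels came near the 8.87 CPM of B-cell-like cells. Of the monocyte-like clusters, one led by Fcnb and Mnda had 135 CPM and one led by Vcan had 64.3 CPM, with library ranges of 82.8 to 205 and 37.0 to 81.4 CPM that did not overlap. The mast-cell/basophil-like cluster had 514 CPM, from 433 to 647 over libraries. A cluster of 2077 cells that was left unnamed, led by haemoglobin genes with progenitor genes beside them, had 244 CPM. Of these cells 1988 came from TO 2d 4h and 71 from TOE 2d 4h, so this value is mostly that of 1 library.

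**Figure D2:**
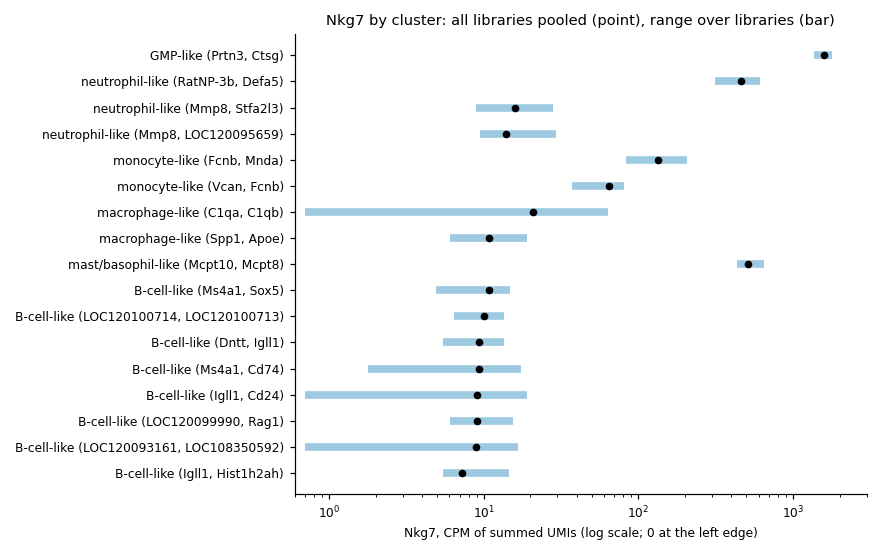
Nkg7 level by cluster (CPM of summed UMIs, log scale) for GMP-like, neutrophil-like, monocyte-like, macrophage-like, mast-cell/basophil-like and B-cell-like clusters, each labelled with its leading genes. Points pool all libraries and bars give the range over libraries. The level is 1593 CPM in GMP-like cells, 462 CPM in the defensin-led neutrophil-like cluster and 13.9 to 15.9 CPM in the late neutrophil-like clusters.

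The other 5 genes did not share this myeloid pattern. In GMP-like cells, Klrd1 had 5 UMIs over all libraries, or 0.121 CPM (0.0393 to 0.282), and Ccl5 had 1.40 CPM (1.07 to 1.81), close to the 1.32 CPM (1.21 to 1.44) of B-cell-like cells. Klrd1 had 341 CPM (309 to 375) in NK-cell-like and 131 CPM (124 to 139.7) in T-cell-like cells. With 868 cells against 164, T-cell-like cells held 64.4% of its UMIs and NK-cell-like cells 26.1%. No mast-cell/basophil-like cell of 940 had a Klrd1 UMI, which, taking 3 counts as the limit, allows a level of up to 0.421 CPM. Ccl5 had 7731 CPM (7576 to 7889) in NK-cell-like and 1025 CPM (1003 to 1047) in T-cell-like cells. In T-cell-like cells it was carried by few cells, since 18.0% of them had a UMI, while 85.4% of NK-cell-like and 0.842% of B-cell-like cells did.

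The share of single cells with several of the genes was high in NK-cell-like cells, lower in T-cell-like cells and near 0 in myeloid cells. With every cell thinned to 2000 UMIs, 88.4% of 155 NK-cell-like cells had UMIs of 3 or more of the 6 genes, against 17.9% of 814 T-cell-like cells, 0 of 1381 GMP-like cells (which, taking 3 counts as the limit, allows up to 0.217% of cells at this thinned depth) and 0.487% of 616 mast-cell/basophil-like cells. At full depth the shares were 93.3%, 35.7%, 0.351% and 1.38%. Gzmb and Prf1, the pair that acts together on a target cell, were found in the same cell in 51 of 164 NK-cell-like cells and in 23 of 868 T-cell-like cells. In mast-cell/basophil-like cells, 222 cells had Gzmb, 2 had Prf1 and 1 had both. A missing UMI in a single cell is no sign that the gene is off.

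The T-cell-like cells were 11 sub-clusters, and the 6 genes differed widely among them. Sub-cluster 5, with 117 cells led by Ccl5 and Skap1 and with Ly49s6 and Klrd1 among its leading genes, had the highest Ccl5 (4345 CPM), Gzmm (927 CPM), Klrd1 (419 CPM) and Prf1 (138 CPM). Its Ccl5 value rests mostly on TOE 2d 4h, with 2093 of the 2967 UMIs and 10659 CPM, while TO 2d 4h had 0 UMIs. Its Cd8b level of 177 CPM, the gene of a CD8 chain, was also the highest of the sub-clusters. Sub-cluster 4, with 137 cells and none from the 4 h libraries, had 1420.2 CPM of Ccl5, 866 CPM of Gzmm and 25.1 CPM of Prf1. The highest Nkg7 level, 664 CPM, was in sub-cluster 8, which was led by Ccl5 and Xcl1, had 865 CPM of the proliferation gene Mki67 and a median of 16129 UMIs per cell. Its 10 leading genes held the NK marker Klrb1a and none of the T cell markers. Ncr1 was at 68.4 CPM, against 80.7 and 188 CPM in the NK sub-clusters. However, it had 192 CPM of Cd3e and 139 CPM of Cd3d, against 0 CPM and at most 1.88 CPM in the NK sub-clusters. Its markers are mixed and its name is uncertain. Values of T-cell-like cells are therefore also given without its 89 cells, a setting added once the values were known. Without them the level in NK-cell-like cells was 15.8 times that in T-cell-like cells for Gzmb, 7.47 times for Ccl5, 6.52 times for Nkg7, 4.37 times for Prf1, 4.07 times for Gzmm and 2.74 times for Klrd1.

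At the other end, sub-clusters 2 and 11, the only ones with both Ccr7 and Lef1 raised, as in naive T cells, had 2.04 and 0 CPM of Ccl5 and 4.09 and 0 CPM of Gzmb. Prf1 was still 26.6 CPM in sub-cluster 2 and 91.6 CPM in sub-cluster 11, where 52 of 56 cells came from 4 h libraries. Sub-cluster 3, led by Icos, Camk4 and Il2ra, had 2.64 CPM of Ccl5 and of Gzmm and 5.27 CPM of Nkg7. Gzmb stayed low in all of them, with at most 39.1 CPM in sub-cluster 7. In sub-clusters 7 and 8 alike, 10 T cell and 11 NK markers were raised over the level of cells outside the T/NK class. The leading genes of sub-cluster 7, however, held Cd3e and no NK marker. Sub-clusters 5, 10 and 12 had 8 of 14 NK markers raised as well. All of these were named T-cell-like because most T cell markers were raised, which took precedence over the NK markers. The ratios of NK-cell-like to T-cell-like cells depend on this order. Sub-cluster 7 also had 737 CPM of the B cell gene Cd79a and a median of 13315 UMIs per cell, and sub-cluster 10, with 22 cells, had 15754 CPM of the neutrophil gene S100a9. The part of such other cells in these values was not tested. The 14 remaining cells of the T/NK class, led by Icos, Il2ra and Gata3, had no UMI of Gzmb, Gzmm, Klrd1 or Ccl5.

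**Figure D3:**
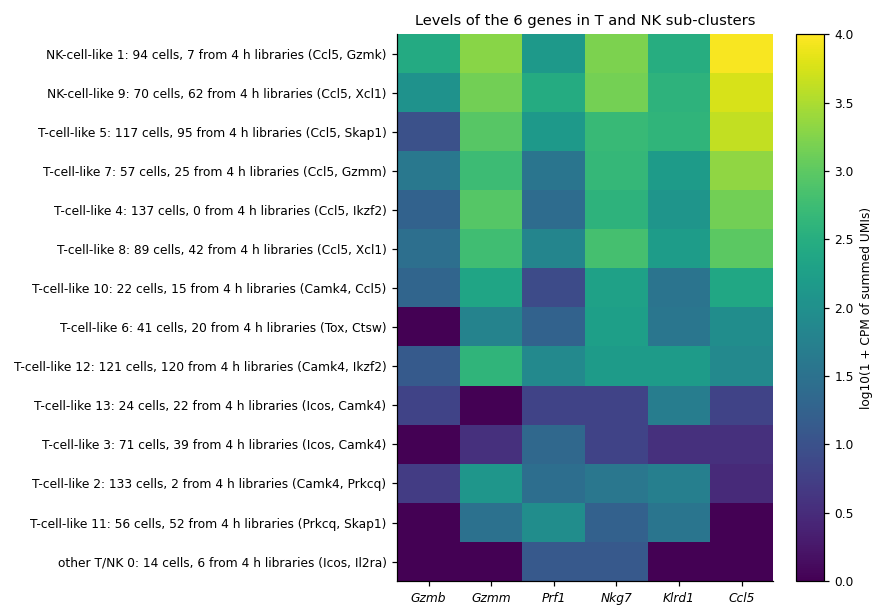
Levels of the 6 genes in the T and NK sub-clusters as log10(1 + CPM of summed UMIs), coloured from 0 to 4, with rows ordered by Ccl5 within each population and labelled with the number of cells, the number from 4 h libraries and the leading genes. Both NK-cell-like rows are high for all genes, while the T-cell-like rows run from a Ccl5 level of 4345 CPM in sub-cluster 5 to 0 in sub-cluster 11. Of the 2967 Ccl5 UMIs of sub-cluster 5, 2093 came from TOE 2d 4h.

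Between libraries the NK levels of Prf1 and Gzmm went with the hour of collection, in opposite directions. At 4 h, Prf1 in NK-cell-like cells had 289 CPM (day 2) and 281 CPM (day 4) in TO and 458 CPM (day 2) and 319.7 CPM (day 4) in TOE. In the other libraries it had 92.9 CPM (2d 0h) and 160.4 CPM (4d 24h) in TO and 98.8 CPM (2d 24h) and 208 CPM (4d 24h) in TOE. The 4 h libraries all lay above the others, in both arms. These Prf1 values rest on few UMIs, from 10 (3 of 5 cells, TOE 4d 24h) to 64 (TOE 4d 4h) per library. The top 5 of 11 cells held 92.0% of the 25 Prf1 UMIs of TO 2d 4h. Whether the gap between 208 and 281 CPM exceeds counting error was not tested. At 4 h, Gzmm in NK-cell-like cells had 1504 CPM (day 2) and 1351 CPM (day 4) in TO and 1487 CPM (day 2) and 1334 CPM (day 4) in TOE. In the other libraries it had 2083 CPM (2d 0h) and 1909 CPM (4d 24h) in TO and 1813 CPM (2d 24h) and 1581 CPM (4d 24h) in TOE. Here the 4 h libraries all lay below the others. So 2 of 6 genes did not overlap between the 4 h and the other libraries, where 9.53% of the 6839 genes counted in these cells did not. The count was 1 with 50 principal components and 0 with populations gated from single cells, with no share over all genes given for either. The summed B cell markers of NK-cell-like cells split by hour as well, at 149.9 to 208 CPM at 4 h and 245 to 478 CPM otherwise, while the sums of the other marker lists overlapped. A split by hour was also seen outside these cells. A B-cell-like cluster with Rag1 and Cecr2 among its leading genes had 2170 to 3129 cells per 4 h library and 35 to 204 otherwise. Another, with Pax5 and Rag1 among them, overlapped, at 275 to 2622 and 489 to 4347 cells.

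The other 4 genes overlapped between the hours in NK-cell-like cells. Gzmb ran from 62.3 to 149.9 CPM in the 4 h libraries and from 115 to 915 CPM in the others, so only TOE 4d 4h reached into their range. Klrd1 was highest in the 2d 4h libraries, with 625 CPM in TO and 614 CPM in TOE, against 186 to 395 CPM in the other 6. Nkg7 had 1273 to 1758 CPM at 4 h and 1289.8 to 1669 CPM otherwise, and Ccl5 5601 to 8732 CPM and 5854 to 10984 CPM. The 915 CPM of Gzmb in TOE 4d 24h came from 5 cells, 1 of which held 33 of the 44 UMIs.

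In T-cell-like cells at 4 h, Prf1 had 63.2 CPM (day 2) and 108 CPM (day 4) in TO and 98.5 CPM (day 2) and 54.8 CPM (day 4) in TOE. Otherwise it had 21.8 CPM (2d 0h) and 22.0 CPM (4d 24h) in TO and 31.5 CPM (2d 24h) and 71.7 CPM (4d 24h) in TOE. The 4 h libraries thus lay above 3 of the other 4, and TOE 4d 24h, with 24 cells and 18 Prf1 UMIs, fell among them. None of the 6 genes was without overlap in T-cell-like cells, where 15.6% of 11693 genes were. Without TOE 4d 24h the count was 1, without TO 4d 24h it was also 1, and without TOE 2d 4h it was 2. Leaving out a library makes overlap less likely for any gene, and no share over all genes is given for these counts. Without sub-cluster 8 the count was 2 as well, namely Gzmb and Prf1, where 17.1% of 11191 genes did not overlap. Ccl5 in T-cell-like cells spread the most, from 207 CPM in TO 2d 4h to 2959 CPM in TOE 2d 4h.

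**Figure D4:**
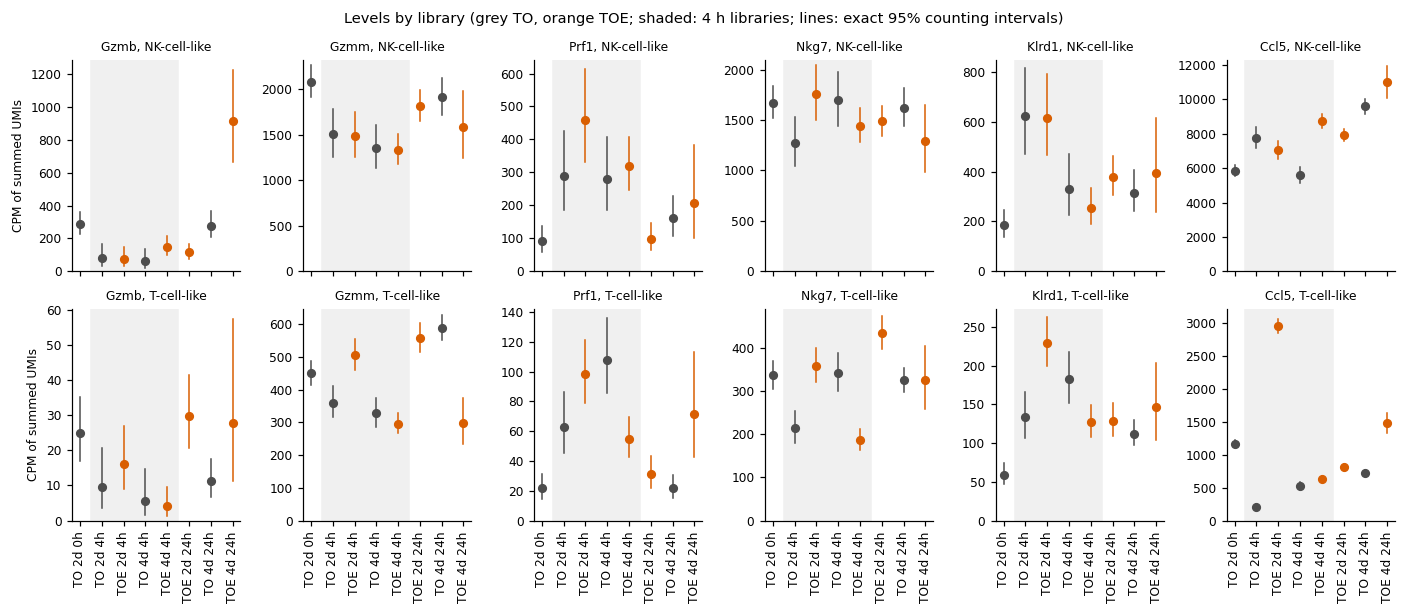
Levels of the 6 genes by library in NK-cell-like cells (upper row) and T-cell-like cells (lower row) as CPM of summed UMIs, with exact 95% counting intervals, TO in grey, TOE in orange and the 4 h libraries shaded. In NK-cell-like cells Prf1 is 281 to 458 CPM in the shaded libraries and 92.9 to 208 CPM in the others, and Gzmm is 1334 to 1504 CPM against 1581 to 2083 CPM.

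The shock wave arms were compared in 3 pairs of the same day and hour, called here the early pair (2d 4h), the middle pair (4d 4h) and the late pair (4d 24h). The cells that carry these genes were themselves unequal in number. In the early pair T-cell-like cells made up 0.528% of the TO and 0.842% of the TOE library, a ratio of 1.60 (1.20 to 2.14). In the middle pair they made up 0.588% and 1.09%, a ratio of 1.85 (1.39 to 2.49). In the late pair the direction was the opposite, with 1.20% in TO and 0.201% in TOE, a ratio of 0.168 (0.105 to 0.259). NK-cell-like cells in TO and TOE numbered 11 and 16, 16 and 26, and 28 and 5, from the early to the late pair. Their ratios of shares were 1.32 (0.576 to 3.15), 1.50 (0.773 to 2.98) and 0.205 (0.0619 to 0.538). GMP-like shares had ratios of 1.27 (1.06 to 1.52), 1.11 (0.880 to 1.41) and 0.650 (0.525 to 0.801). The late pair differed in other cells too. TO and TOE had 551 and 0 cells of the haemoglobin-led erythroid-like cluster and 952 and 80 of the Vcan-led monocyte-like cluster. They had 145 and 25 cells of a macrophage-like cluster led by Spp1, but 489 and 4347 of a B-cell-like cluster with Pax5 among its leading genes. Whether such differences come from the treatment, the animal or the piece of tissue cannot be told apart with 1 library each.

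In NK-cell-like cells few values were past 2-fold between the arms, and with these cell numbers many intervals were wide. Of the genes with at least 20 UMIs in a pair, 0 of 5 in the early pair, 1 of 6 in the middle pair and 1 of 6 in the late pair differed by at least 2-fold. The shares over all genes counted were 18.6%, 13% (379 of 2915) and 23.7%, so these counts are near or below that background. The gene past 2-fold was Gzmb in both cases. It had 62.3 CPM (6 UMIs) in TO and 149.9 CPM (30 UMIs) in TOE in the middle pair, a ratio of 2.40 with an interval of 0.985 to 7.06 that includes 1. In the late pair the ratio was 3.29 (2.15 to 5.01), which rests on the 5 cells described above, and it was 5.58 to 6.80 with a stricter filter, no filter, doublets kept or a Leiden resolution of 2, but 1.24 with populations gated from single cells. Ccl5 had ratios of 0.907 (0.814 to 1.01), 1.56 (1.41 to 1.72) and 1.15 (1.04 to 1.26). The late value of Ccl5 was 1.93 to 2.04 in the same 4 settings that raised Gzmb, and 0.571 with gating, while its early value lay above 1 in 6 alternatives, up to 2.15 with gating. Gzmm had 0.989 (0.774 to 1.26), 0.987 (0.798 to 1.23) and 0.828 (0.638 to 1.06). Nkg7 had 1.38 (1.08 to 1.77), 0.852 (0.701 to 1.04) and 0.796 (0.596 to 1.05), so its early interval excluded 1. Prf1 had 1.58 (0.947 to 2.70), 1.14 (0.716 to 1.86) and 1.30 (0.566 to 2.73). Klrd1 had 0.982 (0.667 to 1.45), 0.766 (0.483 to 1.23) and 1.25 (0.705 to 2.13). With a stricter filter, no filter or doublets kept, 4 values instead of 2 passed 2-fold over the 3 pairs, with no share over all genes given for these settings.

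In T-cell-like cells of the early pair Ccl5 differed most of the 6 genes. Its level was 207 CPM (131 UMIs in 8 of 78 cells) in TO and 2959 CPM (2735 UMIs in 32 of 137 cells) in TOE, a ratio of 14.3 (12.0 to 17.2). Sub-cluster 5 gave most of these UMIs. It held 5 cells with 0 UMIs in TO and 43 cells with 2093 UMIs in TOE. Without it the ratio was 4.04 (3.34 to 4.92), a setting added once the values were known, and with doublets kept it was 6.14. As a mean over cells it was 22.3, and with gating 39.7. Without sub-cluster 8 it was 89.5 (56.5 to 151), since only 18 UMIs then remained in TO. In the middle pair the ratio was 1.20 (1.06 to 1.36) over all T-cell-like cells and 3.63 (2.67 to 5.02) without this sub-cluster, and it was 0.718 as a mean over cells and 0.861 with doublets kept. In the late pair it was 2.03 (1.81 to 2.29), with the 373 UMIs of TOE coming from 3 of 24 cells, and it was 1.01 as a mean over cells and 1.47 without sub-cluster 8. The late ratio was 2.69 with a stricter filter, 2.77 with 50 components and 0.0218 with gating.

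The other genes in T-cell-like cells differed in direction between the 3 pairs. In the early pair all 6 genes were higher in TOE, and for 5 of them, all but Gzmb, the interval excluded 1. The median log2 ratio over the 7936 genes counted was 0.12, also towards TOE. No share over all genes is given for these 2 counts, so they cannot be set beside one. Gzmm, Prf1, Nkg7 and Klrd1 had ratios of 1.40 (1.19 to 1.65), 1.56 (1.06 to 2.32), 1.67 (1.36 to 2.06) and 1.71 (1.32 to 2.22). Without sub-cluster 5, which held 5 and 43 of these cells, Gzmm had 0.845 (0.693 to 1.03) and Klrd1 1.25 (0.925 to 1.71), so that neither interval excluded 1, while Prf1 had 1.60 (1.04 to 2.50) and Nkg7 1.33 (1.06 to 1.68). In the middle pair Prf1, Nkg7 and Klrd1 were lower in TOE instead, with ratios of 0.505 (0.358 to 0.712), 0.546 (0.453 to 0.657) and 0.696 (0.547 to 0.887). Without sub-cluster 5 Prf1 came to 0.896 (0.571 to 1.43), while Nkg7 and Klrd1 stayed lower. In the late pair Gzmm was lower, with a ratio of 0.508 (0.396 to 0.643), and Prf1 higher, with 3.26 (1.75 to 5.87). This Gzmm ratio was 0.702 with a stricter filter, 0.720 with no filter, 0.705 with doublets kept and 0.696 with a Leiden resolution of 2. It was 0.327 without sub-cluster 8. Without sub-cluster 8 the late Prf1 ratio was 1.35 (0.464 to 3.26) and the middle Klrd1 ratio 0.931 (0.710 to 1.23), so that both intervals included 1, while early Nkg7 and Klrd1 came to 2.67 and 2.13. In cells gated singly as T-cell-like, Prf1 was 0.772 (early) and 0.209 (late) and, in the middle pair, Nkg7 was 2.31 and Klrd1 1.83. Most of these gated cells were B-cell-like by cluster, so these values do not check the ratios of the T-cell-like clusters. From the early to the late pair, 1 of 6, 0 of 5 and 3 of 6 genes were past 2-fold, against 12.5%, 7.30% and 20.1% of all genes counted. Without sub-cluster 8 the counts were 3 of 5, 0 of 5 and 1 of 5, against 11.3%, 8.45% and 21.2%. Values of the late pair rest on 24 cells in TOE. The mix of sub-clusters also differed between the libraries of a pair, and its part in these ratios was not tested beyond sub-clusters 5 and 8.

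In GMP-like cells Nkg7 was the only gene with enough UMIs in every pair. Its ratios from the early to the late pair were 1.31 (1.28 to 1.35), 0.946 (0.918 to 0.975) and 1.12 (1.08 to 1.16). The 2 libraries of the early pair were the lowest and the highest of all 8, at 1366 and 1796 CPM. The direction in the middle and late pairs turned under other filters and clusterings, to between 0.743 and 0.944 for the late pair in 6 alternatives, and the early ratio was 1.98 with doublets kept. Gzmm alone passed 2-fold in the early pair, 1 of 3 genes counted against 5.42% of all genes, with 4 and 17 UMIs and a ratio of 2.61 (0.852 to 10.7), which was 0.408 with doublets kept. In the middle and late pairs it was 0 of 1 gene, against 5.31% and 13.6%.

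**Figure D5:**
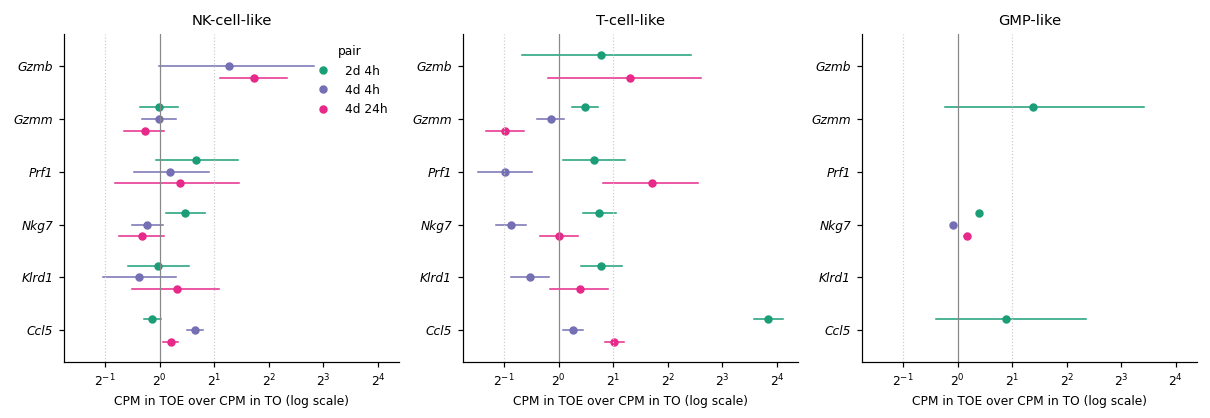
Level in TOE over level in TO (log scale) with exact conditional 95% intervals for the 3 pairs in NK-cell-like, T-cell-like and GMP-like cells, with dotted lines at 2-fold and only genes with at least 20 UMIs in the pair. Ccl5 in T-cell-like cells of the early pair is the farthest value, at 14.3, and most NK intervals include 1.

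Other genes of the cytotoxic programme were read from lists chosen by role. Of the receptors and adaptors of NK cells, 6 of 11 counted were at least 2-fold higher in NK-cell-like than in T-cell-like cells and none was 2-fold lower, with a median ratio of 3.84 beside 0.932 over all genes. Over all genes 5.26% were at least 2-fold higher, which is the share to set beside the counts of the lists that follow. However, 4 of these 6, namely Klrc1, Klrc2, Klrb1a and Ncr1, are markers by which the NK sub-clusters were named, which fixes their direction. Of the 6 genes of the list that are no such marker, 2 passed, Tyrobp and Cd244. The activating receptor gene Ncr1 had 127 and 16.8 CPM, and the adaptor gene Tyrobp had 2015 and 393 CPM. Cd247, the zeta chain of the T cell receptor complex, was higher in T-cell-like cells, at 237 against 166 CPM. Of the other granule proteins, 2 of 6 passed 2-fold, namely Gzma with 209 and 22.9 CPM and Gzmk with 721 and 90.8 CPM. Srgn, the proteoglycan core that packs granules, had 385 and 358 CPM and reached 12351 CPM in GMP-like cells, and Cst7, an inhibitor of granule cathepsins, reached 232 CPM there.

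In the machinery of granule release the median ratio was 0.941, near the 0.932 over all genes. Only Stx11, a syntaxin that acts in the fusion of lytic granules, was 2-fold higher in NK-cell-like cells, 1 of 9 genes, at 99.5 and 41.5 CPM, and 0 of the 9 genes were highest in NK-cell-like cells of all populations. Serpinb9, the inhibitor that shields killer cells from their own granzyme B, was highest in NK-cell-like cells at 67.7 CPM and had 28.7 CPM in T-cell-like cells. Of the transcription factors 3 of 8 passed 2-fold: Tbx21 with 359.8 and 149.9 CPM, Eomes with 119 and 35.0 CPM and Runx3 with 1109 and 531 CPM. Tbx21 and Eomes are naming markers as well, and of the other 6 only Runx3 passed. Of 5 death ligands and cytokines, Faslg (99.5 and 29.7 CPM) and Ifng (15.5 and 7.64 CPM) were 2-fold higher in NK-cell-like cells and Lta was lower. Among chemokines and their receptors 4 of 6 were 2-fold higher, with Xcl1 at 818 and 189 CPM and Ccl4 at 1348 and 449 CPM, and the receptor genes Ccr1 and Cx3cr1 were lower.

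Between the arms, the chemokines beside Ccl5 had unequal ratios in NK-cell-like cells. In the early pair Ccl4 had 2025 CPM in TO and 208 CPM in TOE, and Ccl3 had 787 and 187 CPM, while Ccl5, from the same gene cluster, had 7763 and 7041 CPM. Xcl1 was higher in TOE, at 544 and 1175 CPM. So 3 of 3 genes counted were past 2-fold, 1 higher and 2 lower in TOE, against 18.6% of all genes. In the middle pair Ccl4 had 1257 and 1514 CPM and Ccl3 603 and 814 CPM. In the late pair Ccl4 had 1615 and 853 CPM and Ccl3 278 and 20.8 CPM. The late fall of Ccl3 was not particular to NK-cell-like cells, with 137 and 11.9 CPM in T-cell-like and 151 and 33.0 CPM in GMP-like cells. The early values rest on 11 and 16 cells, and 1 cell held 96 of the 175 Ccl4 UMIs in TO. Of the other granule proteins, 2 of 4 counted were at least 2-fold higher in TOE in the middle pair, 0 of 4 in the early pair and 1 of 4 in the late pair, beside 13%, 18.6% and 23.7% of all genes either way. In T-cell-like cells of the late pair, 4 of 9 NK receptors and adaptors counted were at least 2-fold higher in TOE and none lower, with a median ratio of 1.91, beside 20.1% of all genes either way and with 24 cells in TOE. The summed NK markers of T-cell-like cells were at their highest there, at 1326 CPM, and sub-cluster 8 made up 7 of these 24 cells and 22 of 164 in TO. Without it, 1 of 6 was 2-fold higher, beside 21.2% of all genes, and the median was 1.10. In the middle pair 1 of 8 was lower, beside 7.30% of all genes, and the median was 0.615, or 0.924 without that sub-cluster. In the early pair 2 of 8 were higher, beside 12.5% of all genes, with a median of 1.41, and without that sub-cluster 2 of 7, beside 11.3%, with a median of 1.43. From the early to the late pair, the medians of the 6 genes over all T-cell-like cells were 1.69, 0.696 and 1.67.

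The genes whose pattern was most like that of the 6 were found over 41 clusters and sub-clusters among 8852 genes, by Pearson correlation of log2(CPM + 10). These correlations are descriptions, since the clusters share libraries. Ccl5 was most like Gzmk (0.986) and Klrb1a (0.974). Gzmm and Klrd1 were both most like Tbx21 (0.956 and 0.957), followed by Klre1 (0.948 and 0.951). Prf1 was most like Sh2d1a (0.942), the adaptor of SLAM receptors, and Txk (0.922). Gzmb was most like Klrg1 (0.954) and Scin (0.924), and Nkg7 had the lowest best match, Cst7 (0.733).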

How the data were processed

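Single-cell RNA was measured in 8 libraries of rat tibia on the 10x platform. The authors made the deposited UMI counts per gene and barcode with Cell Ranger 9.0.0. The submitters' processing notes also name Seurat, R 4.0.3 and the builds mRatBN7.2 and GRCh38, and the deposited matrices list 41801 genes by symbol. Groups came from the sample titles. Every group is 1 library and cells are not replicates, and no test was run, also none across the 3 pairs or the 8 libraries.

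The filter (200 genes or more, a mitochondrial share of 20% or less) passed 114232 of 116711 barcodes, and those with a Scrublet score above 0.25 removed (3750, 3.28%, at an expected rate of 8%, since the automatic threshold, which marked 1242, failed in some libraries). Counts were scaled to 10000 per cell and log-transformed (scanpy 1.11.5), and 2000 variable genes without the 6 genes, 30 principal components, 15 neighbours and a Leiden resolution of 1 gave 28 clusters, with no integration of libraries. A cluster was named from marker genes when at least 3 were raised, that is at 4 times the median cluster level and in 10% of its cells. Clusters in which another class had more markers among the 10 leading genes were left unnamed. The T/NK cluster was clustered again, and its 14 sub-clusters were split by their T and NK markers, by a rule set after they were seen. For sub-clusters, raised meant 4 times the level of all cells outside the T/NK cluster, and not of other T or NK cells. A sub-cluster with most T cell markers raised was T-cell-like, also where most NK markers were raised. One with most NK markers alone was NK-cell-like.

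Levels are summed UMIs per 1000000 (CPM) with exact Poisson intervals, ratios have exact conditional intervals, and shares are Clopper-Pearson, all at 95%. Where a count was 0, the limit given is that of 3 counts in the total. Ratios between arms used genes with at least 20 UMIs in the pair, and past 2-fold means a ratio of at least 2 or at most 0.5. The genes named were the 6 genes, role lists, markers, leading genes of sub-clusters, and the 5 genes most correlated with each of the 6 among genes with at least 50 CPM in 1 population. The members and lists were chosen with earlier results of these data known. The ratio script was tested on simulated data. Alternatives were a stricter filter (500 genes, 10%), no filter, doublets kept, resolutions 0.5 and 2, 50 components, the 6 genes among the variable genes, populations gated from single cells, means over cells, thinning, a prior of 0.5 UMI, at least 50 UMIs, each library left out and, added later, T-cell-like cells without sub-cluster 5 or 8.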

Additional observations from a re-analysis of the deposited data

Results flagged for a closer look

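Between the early (2d 4h), middle (4d 4h) and late (4d 24h) pairs of TOE and TO libraries, 5 combinations of gene and population had ratios on opposite sides of 1, with counting intervals that exclude 1 on both sides. The 6 genes were examined in NK-cell-like, T-cell-like and GMP-like cells. No share of all genes with such ratios is given, so this count cannot be set beside one. The intervals treat every UMI as independent and do not cover the spread between cells. Among T-cell-like cells, the top 5 cells held 58.1% of the 136 Nkg7 UMIs of TO 2d 4h and 50.8% of the 240 of TO 4d 4h. In T-cell-like cells Gzmm had 1.40 in the early and 0.508 in the late pair. The late value was 0.696 to 0.720 with a stricter filter, no filter, doublets kept or a Leiden resolution of 2. Prf1 had 1.56 in the early, 0.505 in the middle and 3.26 in the late pair. Nkg7 had 1.67 in the early and 0.546 in the middle pair, and Klrd1 had 1.71 and 0.696 in the same pairs. In GMP-like cells Nkg7 had 1.31, 0.946 and 1.12 from the early to the late pair. Without sub-cluster 8, whose leading genes hold more NK than T cell markers, Prf1 in the late pair was 1.35 and Klrd1 in the middle pair 0.931, with intervals that include 1. Without sub-cluster 5, where Ccl5 was highest, the early Gzmm ratio was 0.845, the early Klrd1 ratio 1.25 and the middle Prf1 ratio 0.896, again with intervals that include 1. In cells gated singly as T-cell-like, most of which were B-cell-like by cluster, Prf1 was 0.772 (early) and 0.209 (late). In the middle pair Nkg7 was 2.31 and Klrd1 1.83 in them. Nkg7 in GMP-like cells lay below 1 in the late pair in 6 alternatives, at 0.743 to 0.944, and above 1 in the middle pair in 2, at 1.07 and 1.13. With 1 library per condition the differences between pairs were not tested.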

How the results depend on the processing

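Pairing by replicate number was not possible, because the groups share fewer than 2 such numbers. The 3 pairs of TOE and TO libraries of the same day and hour could be fitted as pairs, but no such model was run. A model of arm, day and hour over the 8 libraries was not run either. NK-cell-like, T-cell-like and GMP-like cells were 0.148%, 0.786% and 1.29% of all cells. Leaving out 1 library gave 0.137% to 0.161%, 0.727% to 0.856% and 1.20% to 1.39%. NK-cell-like cells were 0.119% with no filter and 0.125% with doublets kept, and T-cell-like cells 0.861% with doublets kept. GMP-like cells were 1.11% (stricter filter), 3.30% (no filter), 2.99% (doublets kept), 0.965% (resolution 0.5), 2.82% (50 components) and 3.24% (the 6 genes among the variable genes). Gating single cells gave 1.45%, 11.9% and 10.9%, and only 10.0%, 5.33% and 10.7% of the gated cells lay in the cluster population of that name. Most cells gated as NK-cell-like were monocyte-like by cluster and most gated as T-cell-like were B-cell-like, so gated values do not check those of the clusters. Levels in NK-cell-like and T-cell-like cells were lowest with gating, with Gzmb at 14.8 and 1.08 CPM and Ccl5 at 429 and 18.5 CPM. With other filters, clusterings or means over cells these were 207 to 242 and 13.5 to 18.1 CPM for Gzmb and 7977 to 9396 and 972 to 1276 CPM for Ccl5, and without 1 library 175 to 227 and 13.2 to 17.8 CPM for Gzmb and 7397 to 8233 and 767 to 1105 CPM for Ccl5. Nkg7 in GMP-like cells was 1263 to 2074 CPM, and 434 CPM with gating.

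Over the 3 pairs, the number of gene values past 2-fold in NK-cell-like cells was 2, and it was 4 with a stricter filter, no filter or doublets kept and 5 with gating. In T-cell-like cells it was 4, and 8 with gating and 7 as a mean over cells. In GMP-like cells it was 1, and 0 with a stricter filter or resolution 0.5, 2 with no filter, doublets kept, the 6 genes among the variable genes or a mean over cells, and 3 with 50 components or gating. Genes that did not overlap between the 4 h and the other libraries numbered 2 in NK-cell-like cells, 1 with 50 components, 0 with gating and 2 to 3 without 1 library. In T-cell-like cells they numbered 0, 2 with gating and 0 to 2 without 1 library. No share over all genes is given for these alternative settings, so their counts cannot be set beside one.

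Of the ratios of TOE to TO, 356 values under an alternative lay within the counting interval of the reported ratio, 90 lay outside it on the same side of 1 or with a reported interval that includes 1, and 17 turned from a reported ratio whose interval excludes 1. Counting every ratio, 73 of 463 crossed 1. Nkg7 in GMP-like cells in the late pair turned to 0.939 (stricter filter), 0.743 (no filter), 0.891 (resolution 0.5), 0.827 (50 components), 0.944 (the 6 genes among the variable genes) and 0.813 (mean over cells), and in the middle pair to 1.07 (no filter) and 1.13 (50 components). Ccl5 in T-cell-like cells in the middle pair turned to 0.861 (doublets kept) and 0.718 (mean over cells), and Gzmm in the early pair to 0.845 without sub-cluster 5, chosen after seeing the data. With gating, Ccl5 in NK-cell-like cells in the late pair was 0.571, and in T-cell-like cells Prf1 in the early pair was 0.772, Nkg7 and Klrd1 in the middle pair 2.31 and 1.83, and Prf1 and Ccl5 in the late pair 0.209 and 0.0218. The cause was not tested. Cell number limits the NK values, with 5 to 32 cells per library.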
